A study of Mus musculus with 6 samples.

Results

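The circular RNAs (circRNAs) of Grm5 and Homer1 were taken as every row of the hippocampal circRNA table whose host list holds the Ensembl identifier of either gene. This gave 11 of 10652 circRNAs, 8 from Grm5 and 3 from Homer1, and each of the 11 lists a single host. The study set mice under chronic unpredictable stress (CUS) against Control mice, to find circRNAs whose level differs with stress, with 3 libraries per group. All mice were adult male C57BL/6J animals (the strain label reads C57BL/6), with no transgene or drug named in the labels. CUS mice met randomly scheduled mild stressors for 4 weeks, among them food or water deprivation, restraint, forced swimming and cage tilt, and Control mice are labelled Control with no further treatment. Each library is whole hippocampus, and the labels do not say whether 1 mouse or several went into it, so p-values here measure the spread between these samples, which may be technical.

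A circRNA is a ring of RNA closed where a downstream splice donor joins an upstream acceptor, and the gene it comes from is its host. Grm5 encodes metabotropic glutamate receptor 5 (mGluR5), a group I receptor at the edge of excitatory synapses that acts through Gq, phospholipase C, calcium release and protein kinase C. Homer1 encodes a postsynaptic scaffold whose EVH1 domain binds mGluR5, inositol trisphosphate receptors and Shank proteins. Its long forms join these partners through a coiled coil, and the short form Homer1a, made after neuronal activity, lacks the coil and uncouples them. Homer1 is also known in mouse and human brain as the host of an abundant circRNA, but the table was used without circRNA coordinates and none of these rings could be identified with a published one. For the same reason no circRNA sequence or junction is shown.

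Grm5 lies on the plus strand of chromosome 7 from 87584168 to 88134907 (GRCm38, GENCODE vM21), and Homer1 on the plus strand of chromosome 13 from 93299635 to 93405129. Grm5 spans 551 kb and has 3 coding transcripts of 8 to 10 exons, while Homer1 spans 105 kb and has 11 coding transcripts of 5 to 10 exons. Among 109 other hosts within 20% of Grm5's length, the median number of circRNAs was 4, with 18 hosts above Grm5's 8, 5 equal to it and 86 below. Among 564 other hosts within 20% of Homer1's length the median was 2, with 152 hosts above Homer1's 3. Of the 8 Grm5 circRNAs, 6 are classed as exonic and 2 as intronic, and the 3 Homer1 circRNAs are exonic.

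A level is 10 to the deposited value, and a circRNA without a value is listed at 0. The levels carry no named unit and no length of the ring, so levels were not ranked between genes. In each library the levels below 300 steps, where this was checked, are whole multiples of a library-specific step to within 0.05 of a step. The lowest level is 17 steps, so a 0 is no proof of absence. The inverse of the step, a possible measure of relative depth, was 81.9% to 89.8% of its highest value in CUS libraries and 90.8% to 100% in Control libraries. There were 3991 to 4273 circRNAs above 0 in CUS and 4329 to 4606 in Control. Summed levels were 1990255 to 2034494 in CUS and 2028329 to 2050720 in Control. The number of reads behind a level is unknown. Hosts of hippocampal cell markers were checked through their circRNAs alone. Of 8 CA pyramidal markers, 4 had a circRNA in the table analysed here, with summed levels of 3149 to 3623 in CUS and 4122 to 7812 in Control. All 6 dentate granule cell markers had one (6249 to 8641 in CUS and 2772 to 9112 in Control), as did 4 of 7 astrocyte markers (1710 to 2642 in CUS and 1085 to 1525 in Control), 5 of 7 oligodendrocyte markers (2039 to 2989 in CUS and 1374 to 2040 in Control) and 4 of 7 interneuron markers (1938 to 7340 in CUS and 2144 to 4632 in Control). Gad1, Gad2, Gfap, Aqp4 and Mog, which define interneurons, astrocytes and oligodendrocytes, had no circRNA in that table.

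Grm5 had 1 circRNA far above its others. mmu_circRNA009483, an exonic circRNA and the only one of the 11 above 0 in all 6 libraries, was at 2703, 3800 and 4803 in CUS replicates 1 to 3 and at 4196, 8344 and 6527 in Control replicates 1 to 3. The 2 highest values were in Control and the 2 lowest in CUS, and the groups overlapped because CUS replicate 3 was above Control replicate 1. Its mean was 3769 ± 1050 in CUS libraries and 6356 ± 2080 in Control libraries (SD, n = 3 each), 0.59 times as high in CUS. The log2 difference, CUS minus Control, was -0.73 with SE 0.36, which did not pass limma's test across 3896 circRNAs (unadjusted p = 0.0541, adjusted p = 0.860).

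**Figure D1:**
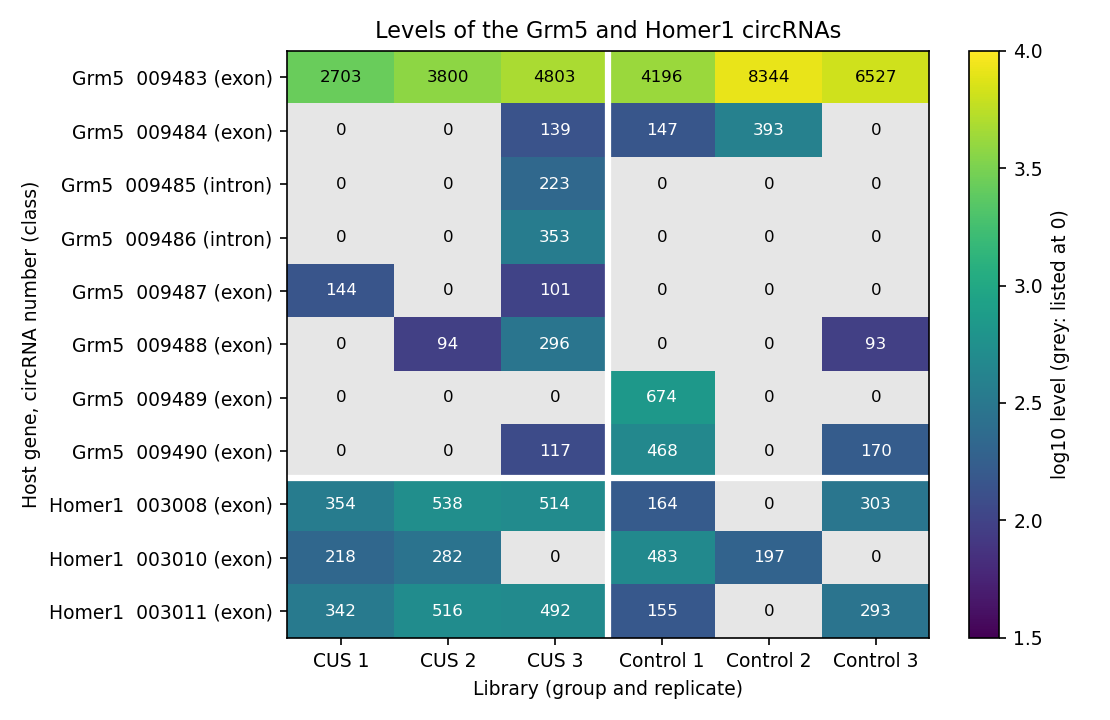
Heat map of the levels of the 8 Grm5 and 3 Homer1 circRNAs (rows, with the class in brackets) in the 6 libraries (columns, CUS left of Control). Colour is the log10 level, grey marks a circRNA listed at 0, and each cell prints the level. The top row, mmu_circRNA009483, is the only row filled in every library, and the 2 intronic rows are filled in CUS replicate 3 alone.

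The other 7 Grm5 circRNAs were each listed at 0 in at least 3 libraries. CUS replicate 3 held the most Grm5 circRNAs, 7 of 8, against 2 in CUS replicate 1 and 2 in CUS replicate 2. Control replicates 1 to 3 held 4, 2 and 3. Both intronic circRNAs, mmu_circRNA009485 and mmu_circRNA009486, were above 0 in CUS replicate 3 alone, at 223 and 353. The exonic mmu_circRNA009489 was at 674 in Control replicate 1 and listed at 0 in the 5 other libraries. mmu_circRNA009487 was at 144 in CUS replicate 1 and 101 in CUS replicate 3, and listed at 0 in CUS replicate 2 and all 3 Control libraries. These 4 circRNAs, above 0 in fewer than 3 libraries, were not tested, and each rests on 1 or 2 libraries.

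Of the tested minor circRNAs, mmu_circRNA009484 was at 0, 0 and 139 in CUS libraries, against 147, 393 and 0 in Control libraries. mmu_circRNA009490 was at 0, 0 and 117 in CUS libraries, against 468, 0 and 170 in Control libraries. Both had 2 Control libraries and 1 CUS library above 0. mmu_circRNA009488 had the reverse, at 0, 94.1 and 296 in CUS libraries, against 0, 0 and 93.1 in Control libraries. Their log2 differences were -1.11 (SE 1.13), -1.30 (SE 1.16) and 0.97 (SE 0.94), each close to its SE (limma adjusted p = 0.872 for each). Single libraries moved these values without turning their sign. The log2 difference of mmu_circRNA009484 lay between -2.00 (without Control replicate 3) and -0.37 (without Control replicate 2), that of mmu_circRNA009490 between -2.26 (without Control replicate 2) and -0.51 (without Control replicate 1), and that of mmu_circRNA009488 between 0.27 (without CUS replicate 3) and 1.73 (without CUS replicate 1).

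Summed over its 8 circRNAs, Grm5 was at 2848, 3894 and 6031 in CUS libraries, against 5485, 8738 and 6790 in Control libraries. All 3 Control sums were above the sums of CUS replicates 1 and 2, while CUS replicate 3 was above Control replicate 1. The mean sum was 4258 ± 1623 in CUS libraries and 7004 ± 1637 in Control libraries (SD, n = 3 each), 0.61 times as high in CUS. The log2 difference of host sums was -0.75 with SE 0.34 and a 95% interval of -1.43 to -0.07, and it did not pass limma's test across 2227 hosts (unadjusted p = 0.0305, adjusted p = 0.739). By unadjusted p Grm5 was number 92 of the 2227 hosts. Of all hosts tested, 3.14% had an unadjusted p under 0.05 with a lower level in CUS, and 0% passed at an adjusted p under 0.05. The exact two-sided permutation test on mean levels gave p = 0.2, where 3 against 3 cannot go below 0.1. The limma unadjusted p was 0.295 without the variance trend, and 0.148, 0.0868, 0.142 and 0.0678 without CUS replicate 1, CUS replicate 2, Control replicate 2 or Control replicate 3. It was 0.0070 without CUS replicate 3 and 0.0403 without Control replicate 1. With other pseudocounts or filters, quantile normalization or a replicate block it was 0.00895 to 0.0380. The lowest limma adjusted p of any alternative was 0.636. Neurons and astrocytes both express Grm5. The CA pyramidal marker sum above was lower in every CUS library than in every Control library and the astrocyte marker sum higher. The dentate granule, oligodendrocyte and interneuron marker sums overlapped between groups. Among all circRNAs tested, 5.78% had every CUS library above every Control library, and such a share was not computed for marker sums. The part of these cell types in the Grm5 values was not tested. In whole tissue, fewer cells of a type and less circRNA per cell cannot be told apart.

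**Figure D2:**
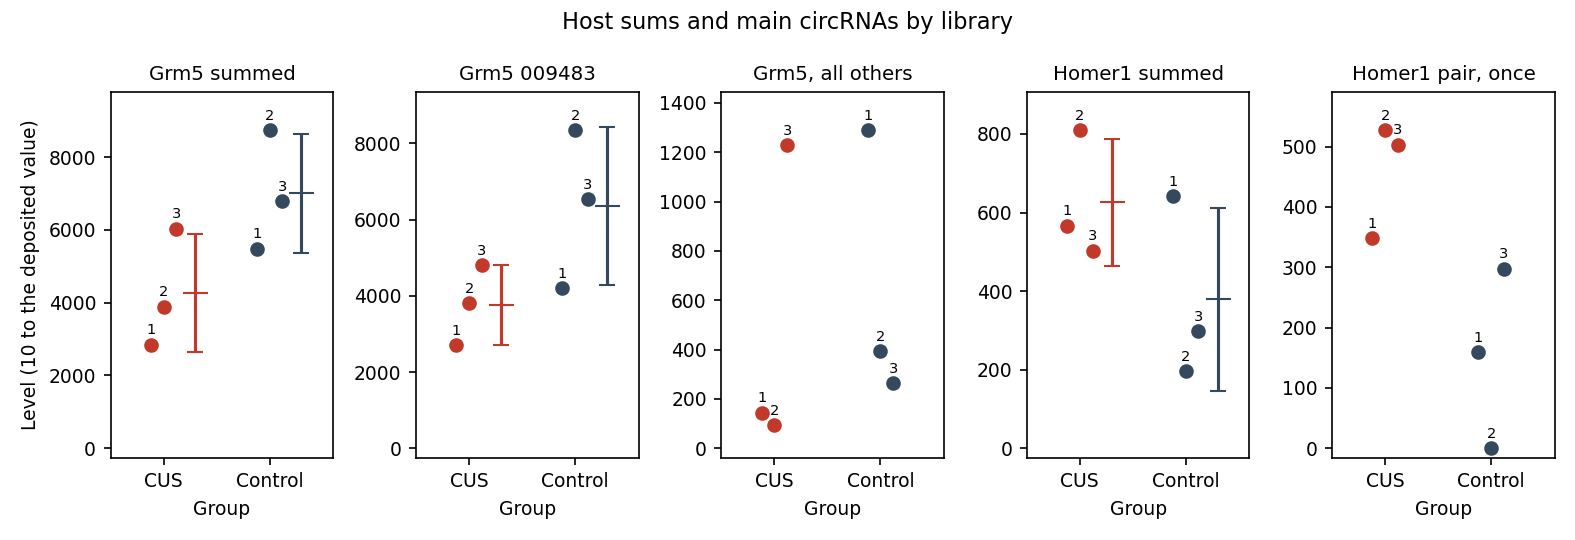
Levels by library for the Grm5 sum, mmu_circRNA009483, the other Grm5 circRNAs summed, the Homer1 sum with its near-identical pair counted once, and that pair alone (CUS left, Control right). Points are libraries numbered by replicate, and crossbars with whiskers are the mean ± SD (n = 3), drawn for the host sums and mmu_circRNA009483. The Homer1 pair is the only panel in which the groups do not overlap, with CUS at 348 to 527 and Control at 0 to 298.

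The Grm5 sum followed mmu_circRNA009483. That circRNA made up 94.9%, 97.6% and 79.6% of the Grm5 sum in CUS replicates 1 to 3 and 76.5%, 95.5% and 96.1% in Control replicates 1 to 3. The 2 lower shares, in CUS replicate 3 and Control replicate 1, were in the 2 libraries with the most Grm5 circRNAs above 0. The mean share was 90.7% ± 9.69 in CUS libraries and 89.4% ± 11.2 in Control libraries (SD, n = 3 each), with an exact permutation p of 0.7. Without mmu_circRNA009483 the Grm5 sum was 144, 94.1 and 1229 in CUS and 1289, 393 and 263 in Control, and its log2 difference of -0.81 did not pass limma's test (unadjusted p = 0.491, adjusted p = 0.918).

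This concentration was set beside other hosts. Over all 6 libraries, mmu_circRNA009483 carried 89.9% of the Grm5 mean sum. Among the 208 hosts with 8 or more circRNAs, the most abundant circRNA carried a median of 29.8% of its host's mean sum, with a range of 8.94% to 89.9%. Grm5 had the highest share of the 208, and the next was Herc4, a ubiquitin ligase gene with 12 circRNAs, at 78.5%. The cutoff of 8 is Grm5's own count, which 48 of the 208 hosts have, Grm5 included, and the rest have more. A sum split over more circRNAs can leave a lower top share, and near-identical circRNAs of a host were not merged here. The share is a description of these libraries and was not tested.

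**Figure D3:**
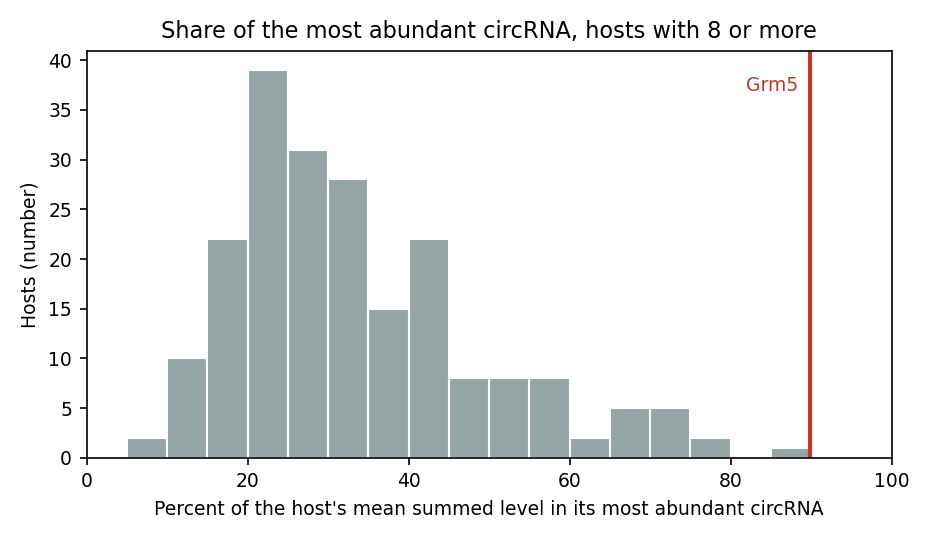
Histogram of the percent of a host's mean summed level that its most abundant circRNA carries (x axis, bins of 5 percentage points), for the 208 hosts with 8 or more circRNAs (y axis, number of hosts). The red line marks Grm5 at 89.9%, to the right of all other hosts, whose median lies near 29.8%.

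Homer1 had 2 circRNAs with nearly the same level in each library. mmu_circRNA003008 was at 354, 538 and 514 in CUS libraries, against 164, 0 and 303 in Control libraries. mmu_circRNA003011 was at 342, 516 and 492 in CUS libraries, against 155, 0 and 293 in Control libraries. The first was above the second by 4, 8 and 8 steps in CUS and by 4, 0 and 4 steps in Control, so both may rest on the same reads, and they were counted once as their mean.

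Counted once, the Homer1 pair was at 348, 527 and 503 in CUS libraries, against 159, 0 and 298 in Control libraries. Every CUS library was above every Control library, which held for 5.78% of all 3896 circRNAs tested. An exact two-sided permutation test gave p = 0.1, the smallest that 3 against 3 allows, and Benjamini-Hochberg adjustment over the 8 quantities tested by permutation gave 0.4 to 0.7. In limma's test mmu_circRNA003008 had a log2 difference of 1.76 with SE 1.19 and mmu_circRNA003011 one of 1.75 with SE 1.20, with an adjusted p of 0.872 for each. Control replicate 2, listed at 0, entered these values: without it the log2 difference of mmu_circRNA003008 was 0.91 and that of mmu_circRNA003011 also 0.91.

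The third Homer1 circRNA, mmu_circRNA003010, did not move with the pair. It was at 218, 282 and 0 in CUS libraries, against 483, 197 and 0 in Control libraries, so that CUS replicate 3 and Control replicate 3 held the pair alone and Control replicate 2 held mmu_circRNA003010 alone. The groups overlapped, and the log2 difference was -0.19 with SE 1.43. The pair made up 61.5%, 65.1% and 100% of the Homer1 sum in CUS and 24.8%, 0% and 100% in Control.

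Summed with the pair once, Homer1 was at 566, 810 and 503 in CUS libraries, against 642, 197 and 298 in Control libraries. Control replicate 1 lay above CUS replicates 1 and 3, so the groups overlapped although 2 of 3 Control sums were below all CUS sums. The mean was 626 ± 162 in CUS libraries and 379 ± 234 in Control libraries (SD, n = 3 each), 1.65 times as high in CUS. The log2 difference of host sums was 0.78 with SE 1.00 and a 95% interval of -1.25 to 2.80, and it did not pass limma's test (adjusted p = 0.918). The exact permutation p was 0.3. The estimate came from the pair: with mmu_circRNA003010 alone as the Homer1 value, the log2 difference was -0.19.

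**Figure D4:**
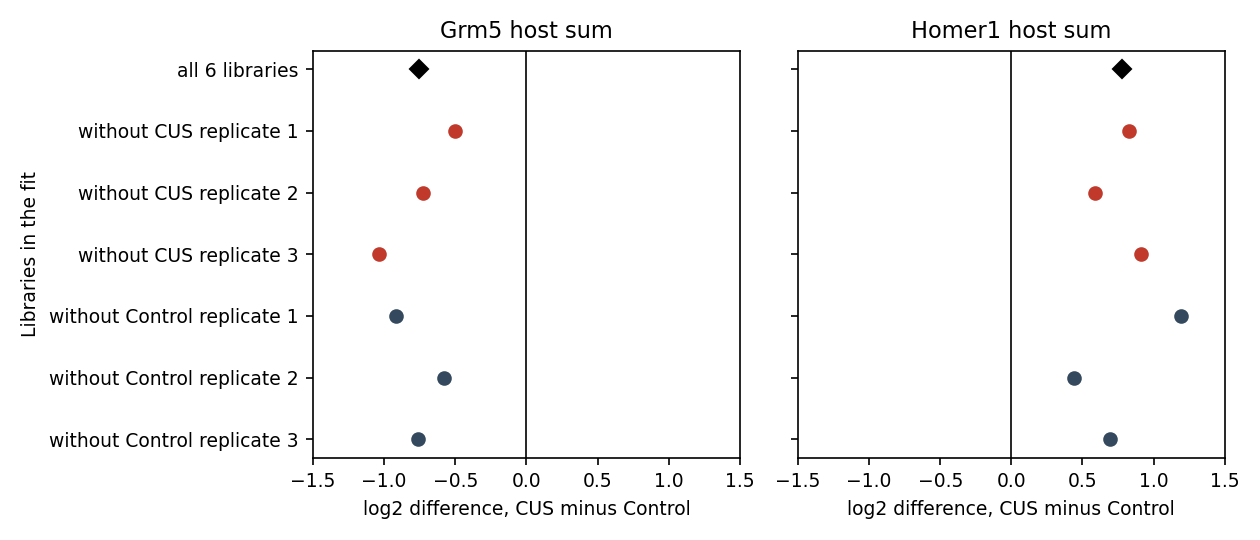
Log2 differences of host sums, CUS minus Control (x axis), for Grm5 (left) and Homer1 (right), with all 6 libraries (black diamond) and with each library left out in turn (red for a CUS library, dark blue for a Control library). Grm5 stays between -1.04 and -0.50 and Homer1 between 0.44 and 1.19, on either side of 0.

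Of the 11 circRNAs, 7 were tested, 6 with the pair counted once, and of these 6, the fitted value was higher in CUS for 2 and lower for 4. By limma's test 0 of 7 passed at an adjusted p under 0.05, and 0% of all circRNAs tested did. At an unadjusted p under 0.05 there were also 0 of 7, beside 6.01% of all circRNAs tested. The mean Grm5 sum was lower and the mean Homer1 sum higher in CUS. Their log2 ratio, Grm5 over Homer1, was 2.33, 2.27 and 3.58 in CUS and 3.09, 5.47 and 4.51 in Control, with means of 2.73 ± 0.74 and 4.36 ± 1.20 (SD, n = 3 each). CUS replicate 3 was above Control replicate 1, and the exact two-sided permutation p for this ratio, which was chosen after its values were seen, was 0.2.

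Other hosts of the group I mGluR pathway were described by role from 7 lists. Of the 99 listed genes other than Grm5 and Homer1, 58 had a circRNA, with 273 circRNAs in all, and 45 hosts were tested. None of the 45 passed limma's test at an adjusted p under 0.05. An unadjusted p under 0.05 was seen for 2 hosts higher and 2 hosts lower in CUS, 8.89% of the 45, beside 5.7% of all hosts tested. The lists were chosen with earlier results of these data known, so this share is not independent of those results. The lower hosts include Cacna1d, which was listed at 0 in every CUS library. Cacna1d passed the filter through Control libraries alone, so the 8.89% includes a host filled in only 1 group. All hosts behind the 5.7% went through the same filter, and its part in either share was not tested. Fitted values were higher in CUS for 19 and lower for 26, with a median log2 difference of -0.11, beside -0.06 over all 2227 hosts.

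Among glutamate receptors, 6 of 10 had circRNAs and were tested, Grm5 among them, 2 with higher and 4 with lower fitted values in CUS, with a median log2 difference of -0.34. Grin2b, an NMDA receptor subunit gene, had the smallest p of the list and the other sign, at 5177, 4397 and 3221 in CUS libraries, against 3264, 1044 and 1676 in Control libraries (log2 difference 1.20, SE 0.44, limma adjusted p = 0.739). Grm3, Grm4, Grm7 and Grin2a had log2 differences of 0.38, -1.78, -0.15 and -0.53, none with an unadjusted p under 0.05.

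In the Homer family, Homer1 was the only one of 3 genes with a circRNA in the table analysed here. Among scaffolds, 11 of 15 genes had circRNAs and 9 were tested, 6 with higher and 3 with lower fitted values in CUS (median log2 difference 0.34). Cnksr2, a scaffold of Ras signalling, was at 3620, 4709 and 2848 in CUS libraries, against 1695, 2471 and 1357 in Control libraries, with a log2 difference of 1.01 (SE 0.43, limma adjusted p = 0.739). Dlg2, which encodes the PSD-95 relative PSD-93, was at 666, 1191 and 707 in CUS libraries, against 1282, 1288 and 2128 in Control libraries, with the other sign (log2 difference -0.85, SE 0.62). Shank1 and Shank3, which encode partners of Homer1, had log2 differences of 0.40 (SE 0.75) and 0.34 (SE 0.46).

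In the G protein and phospholipase C branch 8 of 16 listed genes had circRNAs and 6 were tested, 4 with higher and 2 with lower fitted values (median log2 difference 0.17). Plcb1, the phospholipase C that follows Gq in much of the forebrain, was at 1427, 159 and 152 in CUS libraries, against 145, 0 and 0 in Control libraries. Most of its summed level in CUS was in replicate 1. Dgkb, a diacylglycerol kinase gene, was at 1120, 3125 and 3775 in CUS libraries, against 3025, 3162 and 3357 in Control libraries, and its groups overlapped. Most tested hosts of this branch were listed at 0 in some libraries, and such zeros enter the median of 0.17.

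Among calcium stores and channels 12 of 18 listed genes had circRNAs and 10 were tested, 4 with higher and 6 with lower fitted values (median log2 difference -0.36, which includes Cacna1d). The hosts whose values set this median, not Cacna1d, were each listed at 0 in CUS replicate 3 and in a Control library. Cacna1d, an L-type calcium channel gene, was listed at 0 in all 3 CUS libraries and was at 198, 1326 and 1333 in Control. Cacna1c, another L-type gene, was at 1389, 796 and 1101 in CUS libraries, against 121, 817 and 497 in Control libraries, with CUS replicate 2 below Control replicate 2. Itpr1, whose product is a calcium release channel bound by Homer1, was at 472, 522 and 0 in CUS libraries, against 765, 845 and 351 in Control libraries.

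Among kinases and phosphatases 11 of 20 listed genes had circRNAs and 9 were tested, 2 with higher and 7 with lower fitted values (median log2 difference -0.34). Prkce and Prkcb encode protein kinase C isoforms. Prkce was at 5132, 2566 and 2286 in CUS libraries, against 4531, 5918 and 6766 in Control libraries, where CUS replicate 1 was above Control replicate 1 (log2 difference -0.85, SE 0.37, limma adjusted p = 0.739). Prkcb was at 525, 2655 and 1789 in CUS libraries, against 1898, 2620 and 2628 in Control libraries, with CUS replicate 2 above all Control libraries. Among translation genes 11 of 19 listed genes had circRNAs and 6 were tested, 1 with higher and 5 with lower fitted values (median log2 difference -1.14). Eif4g3, a translation initiation factor gene, was at 165, 1119 and 1272 in CUS libraries, against 1707, 1709 and 827 in Control libraries. Rps6kb1, which encodes S6 kinase, was at 448, 605 and 0 in CUS libraries, against 126, 0 and 0 in Control libraries. Levels of both genes overlapped between groups. All translation hosts tested other than Eif4g3 were listed at 0 in at least 1 library, so the median of -1.14 leans on such zeros. None of them had a limma unadjusted p under 0.05.

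**Figure D5:**
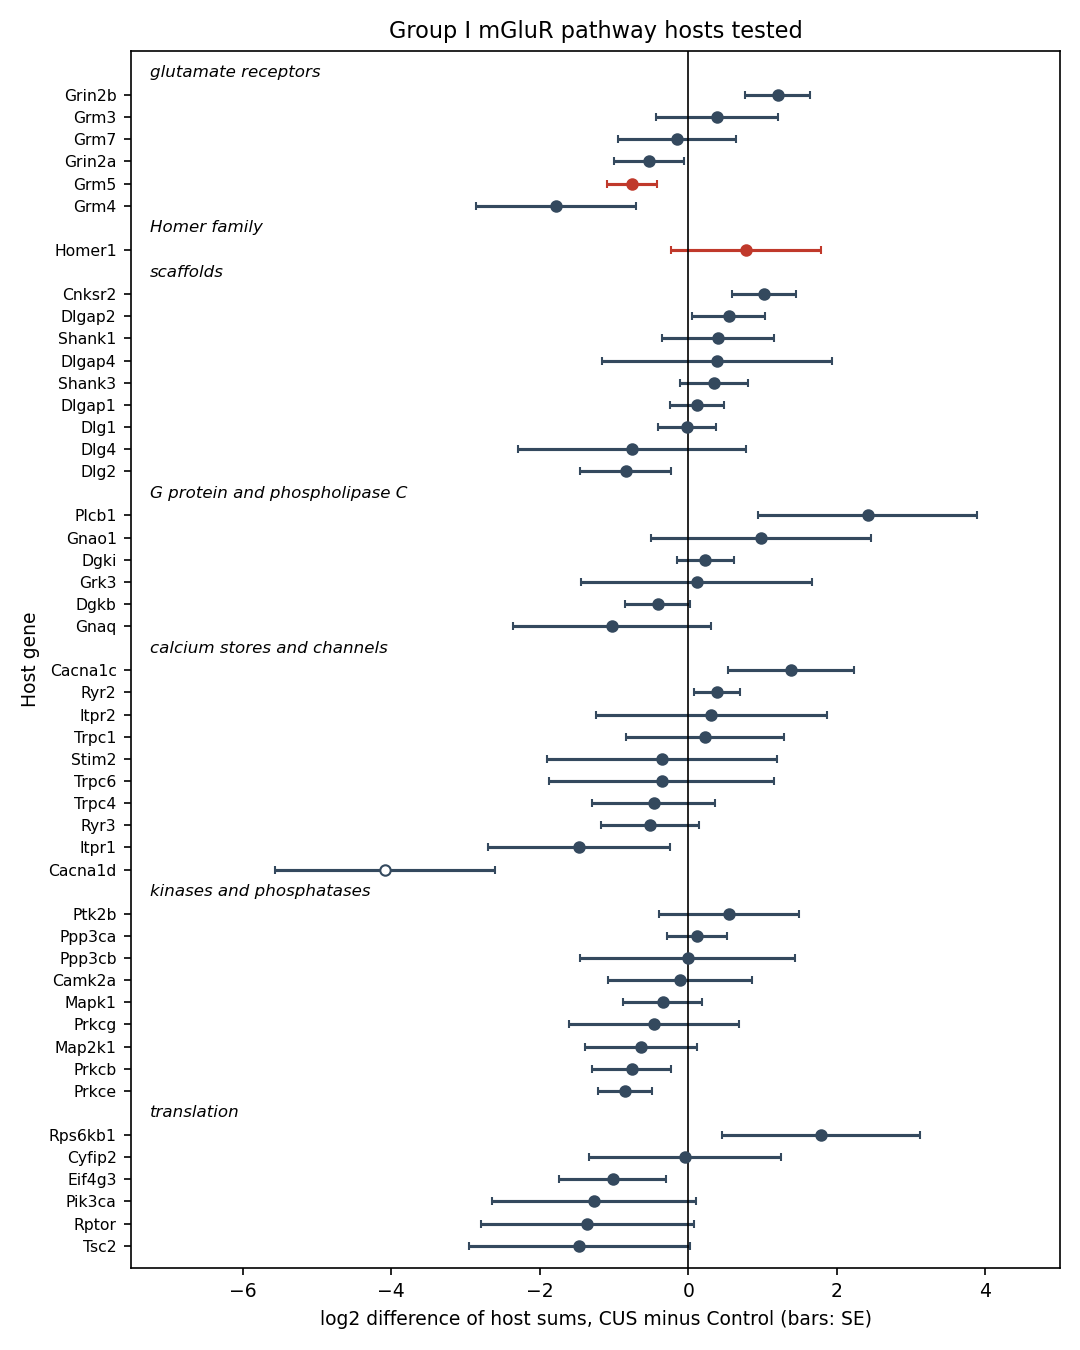
Log2 differences of host sums, CUS minus Control (x axis, bars are SE), for the tested pathway hosts grouped by role (y axis), with Grm5 and Homer1 in red and the open circle for Cacna1d, which was listed at 0 in all CUS libraries. Grm5 at -0.75 and Homer1 at 0.78 lie on either side of 0, and the other hosts spread to both sides.

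Finally, hosts whose sums followed Grm5 or Homer1 most closely over the 6 libraries were listed by Pearson's r on the log2 scale, as a description among 916 hosts above 0 in all libraries. Those nearest to Grm5 were Uri1 (r = 0.97), a prefoldin-like gene, Pcf11 (r = 0.95), a gene of mRNA 3' end processing, and Phlpp2 (r = 0.95), a phosphatase gene. Uri1 was at 147, 299 and 457 in CUS libraries, against 531, 1510 and 841 in Control libraries. Those nearest to Homer1 were Enah (r = 0.98), an actin regulator gene, Ldlrad4 (r = 0.95) and Cntnap2 (r = 0.94), a neuronal adhesion gene. Enah was at 3343, 4198 and 3463 in CUS libraries, against 4067, 1851 and 2115 in Control libraries. The points share their libraries and scale factors, and r served only to order the hosts.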

How the data were processed

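Hippocampal RNA from 6 libraries was selected for poly(A), made into stranded libraries with molecular identifiers and sequenced as read pairs, per the labels' protocols. A ring has no poly(A) tail, so this selection can distort circRNA recovery. The authors deposited 1 table of log10 levels, with 0 for no value. The submitters' processing notes name mm9, StringTie, DESeq and edgeR with no step assigned to them, and no caller of circRNAs is named there. Gene names came from GENCODE vM21, where 4467 of 4483 host identifiers matched.

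Levels were summed per host (3772 hosts), with a circRNA of several hosts given to its only protein-coding one. Group differences, CUS minus Control, were fitted in limma 3.58.1 (R 4.3.3), with eBayes and a variance trend, on log2(level + 45.5), where 45.5 is the median of the 6 libraries' lowest levels, for features above 0 in at least 3 libraries. P-values were adjusted by Benjamini-Hochberg over all features, with a threshold of 0.05. Log2 differences on this scale understate changes of low circRNAs. The fit was tested on simulated data. Exact permutation tests used scipy 1.17.1 and figures matplotlib 3.10.9. Members and lists were chosen with earlier results of these data known. Named pathway hosts were the 2 of smallest p per role, and Grm3, Grm4, Grm7, Grin2a, Shank1, Shank3 and Itpr1 were added for their roles after their values were seen. Same-numbered libraries of CUS and Control did not deviate together (r of deviations -0.01, -0.07 and 0.01 over 804 circRNAs), so no replicate block was used.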

Additional observations from a re-analysis of the deposited data

How the results depend on the processing

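Calls stayed at 0 for circRNAs, hosts, the Grm5 and Homer1 circRNAs and the pathway lists under all 13 alternatives run on each (pseudocounts of 0.2 and 5 times the main one, no filter, above 0 in all 6 libraries, no trend, quantile normalization, replicate block and each library left out), with a lowest limma adjusted p of 0.198 for hosts and 0.329 for circRNAs. The Grm5 host sum was lower in CUS in all 15 alternatives, with log2 differences from -1.04 (without CUS replicate 3) to -0.50 (without CUS replicate 1). The filters, the trend, the replicate block and the use of rows listing Grm5 alone cannot change this estimate. It is -0.75 there by construction, so these settings say nothing on its direction (limma adjusted p = 0.812 with the replicate block). The Homer1 host sum ranged from 0.44 to 1.19 when a library was left out, was 1.14 with both circRNAs of the pair counted, and turned to -0.19 without the pair, its most abundant circRNA, since mmu_circRNA003010 alone then remains. mmu_circRNA003010 ranged from -1.18 to 0.71 when a library was left out, and was above 0 without CUS replicate 3, Control replicate 1 or Control replicate 2. In settings chosen after seeing the data, the difference in the share of mmu_circRNA009483 in the Grm5 sum, 1.34 percentage points, ranged from -5.10 to 6.88 when a library was left out, and the difference in the log2 ratio of Grm5 to Homer1, -1.63, ranged from -2.26 to -1.08. The 6 other tested circRNAs kept their direction in every alternative run on them, though filters, trend and replicate block cannot change it. The 4 untested circRNAs were fitted only in the alternative without a filter, where 0 of the 11 circRNAs passed. Unknown read numbers leave circRNAs of few libraries without a stated precision.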
